A study of Homo sapiens with 18 samples.

Results

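The dopamine by acetylcysteine experiment asked whether the transcriptional response of human brain organoids to dopamine differs when an antioxidant is present. It comprised 12 of the 18 libraries of the series, in a 2 by 2 design of 4 groups with 3 libraries each. All 12 were bulk polyA RNA libraries from organoids of H9, a human embryonic stem cell line, to which SHH, a ventralising morphogen, was added at 100 ng/mL from day 10 together with purmorphamine at 1 µM, an agonist of the same pathway, and which the labels call cerebral organoids grown by a ventral forebrain protocol. The dopamine + inhibitor group received 1 µM dopamine and 100 µM acetylcysteine, labelled as the inhibitor of reactive oxygen species (ROS). The dopamine group received 1 µM dopamine without acetylcysteine. The control + inhibitor group received acetylcysteine with the vehicle, and the control group received the vehicle. All 4 groups were exposed to 100 µM ascorbic acid, the vehicle and itself an antioxidant, so no group was free of an added antioxidant. Dosing began at day 83, lasted 1 h per day for 1 week and ended with a final dose of 1 h.

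The measured quantity was the interaction, defined for each gene as the log2 fold change of dopamine + inhibitor against control + inhibitor minus the log2 fold change of dopamine against control. A negative value means that the dopamine effect was lower, or more negative, with acetylcysteine than without it. A gene was called at a Benjamini-Hochberg adjusted p under 0.05 in edgeR's quasi-likelihood test, run over 18913 genes. Levels are read counts scaled to library size (CPM) with TMM factors (trimmed mean of M values). Whether the 3 libraries per group derive from distinct cultures is not stated in the labels. The p-values therefore reflect library-to-library variation, which may be technical.

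Dopamine that is not bound in vesicles is broken down by monoamine oxidase, which releases hydrogen peroxide, and it oxidises spontaneously to reactive quinones. Acetylcysteine supplies cysteine, the limiting building block of the thiol antioxidant glutathione, and can reduce disulphides directly. Cells answer oxidative and protein damage through separable programmes: NRF2 raises antioxidant enzymes, heat shock factor raises chaperones, the integrated stress response acts through ATF4 and slows protein synthesis, and the unfolded protein response expands folding in the endoplasmic reticulum. DDIT4, also known as REDD1, is raised by several of these programmes and by hypoxia, and it inhibits the growth kinase complex mTORC1.

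The 12 libraries held 23789195 to 30327891 reads, with at least 1 read in 24131 to 24406 genes. SIX3, an anterior forebrain factor, ran from 46.2 to 99.5 CPM and GAD2, an enzyme of GABA synthesis, from 44.7 to 66.7 CPM, while NKX2-1, a ventral forebrain factor induced by SHH, ran from 0.0698 to 2.80 CPM. The ventral forebrain label was therefore met by some of its markers, and NKX2-1 was low in all 12 libraries. Single libraries stood apart in several ways. Dopamine replicate 2 had the most negative relation between a gene's level and its GC content, with a Spearman rho of -0.383 across 16280 genes, against -0.151 and -0.0257 in the other dopamine libraries, and 0.111 to 0.195 in the 3 control libraries. Dopamine + inhibitor replicate 1 had MKI67, a proliferation marker, at 24.6 CPM, against 34.5 to 53.8 CPM in the other 11 libraries. Dopamine + inhibitor replicate 3 had PMEL, a pigment cell gene, at 29.4 CPM, against 0.319 to 1.47 CPM in the other 11.

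DDIT4 was the only gene called for the interaction, which is 1 of 18913 genes or 0.00529%. Its level was 146, 159.9 and 134 CPM in the dopamine + inhibitor libraries, and 214, 204 and 213 CPM in the dopamine libraries. It was 197, 181 and 193 CPM in the control + inhibitor libraries, and 147, 168 and 150.0 CPM in the control libraries. The libraries given either agent alone stood above all control libraries, and those given both overlapped the control libraries. The interaction was -0.82 on the log2 scale (SE 0.103, 95% interval -1.03 to -0.60, adjusted p = 0.00457), a 1.76-fold difference between the 2 dopamine effects. Dopamine raised DDIT4 relative to control by 0.44 (SE 0.0727, adjusted p = 0.00952), and DDIT4 fell by 0.52 in dopamine + inhibitor relative to dopamine (SE 0.0729, adjusted p = 0.0208). Dopamine + inhibitor against control + inhibitor gave -0.38 (SE 0.0729, adjusted p = 0.193) and control + inhibitor against control gave 0.30 (SE 0.0728, adjusted p = 0.823), neither of which was called. In both of these pairs the 3 libraries of one group did not overlap the 3 of the other. Such separation held for 10.2% of all genes in the first pair and was not counted over all genes in the second. DDIT4 was chosen by a p that rests on these libraries, so nothing is read from the separation. The interaction of DDIT4 was called in each of the 21 alternative fits, including those that left out 1 of the 12 libraries, with values of -0.89 to -0.76. The 2 calls for DDIT4 in the interaction and in dopamine + inhibitor against dopamine share libraries and are not separate evidence.

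**Figure D1:**
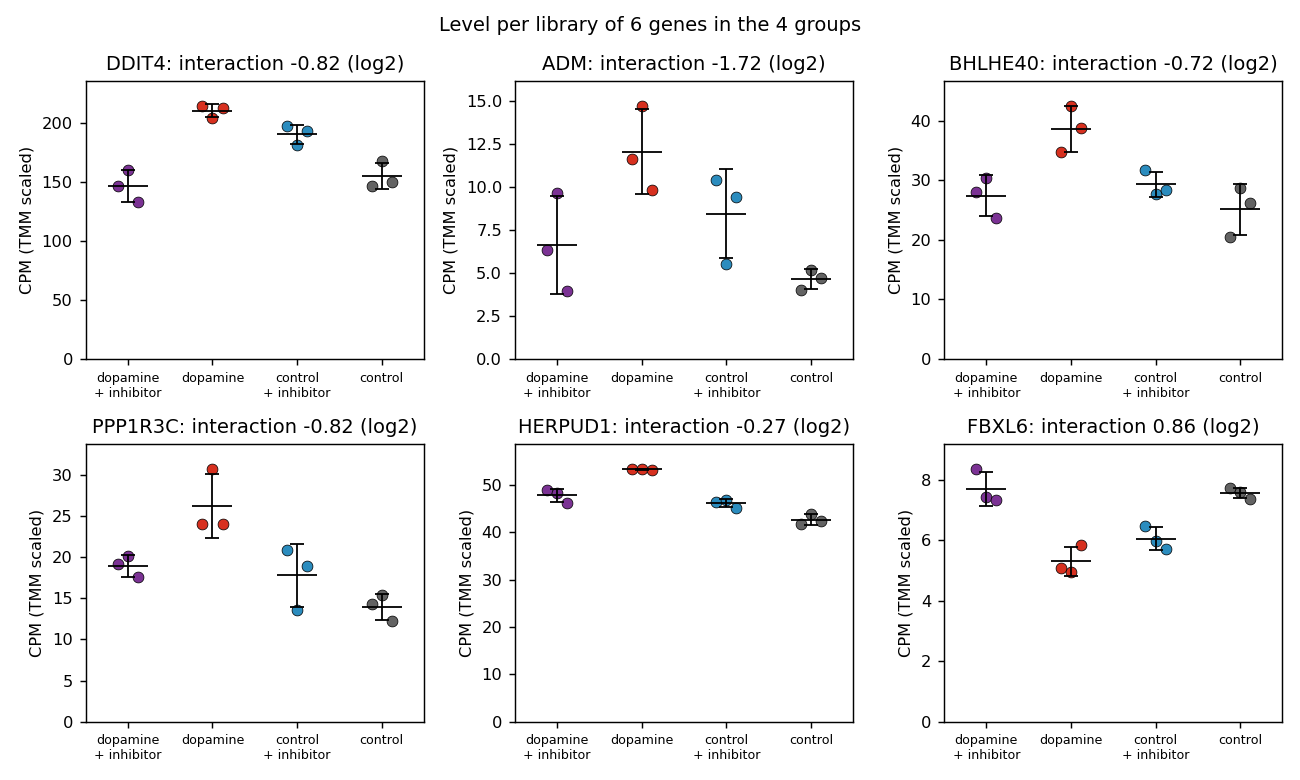
Level of 6 genes in CPM (vertical axes, from 0) in each library (points) of the 4 groups, with the group mean and SD as bars. DDIT4 is high with dopamine alone and with acetylcysteine alone and lower with both or neither, and FBXL6 shows the opposite order, at 4.96 to 5.85 CPM in the dopamine libraries.

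DDIT4 lies on chromosome 10 at 72273924 to 72276036 (GRCh38, plus strand), and no annotated gene overlaps it. The region around its start site is shown with that of HERPUD1, because these 2 genes had the lowest interaction p in the lists of the integrated stress response and the unfolded protein response and because motifs of stress factors were found in both. The sequences are from RefSeq on GRCh38.p14, cover 250 bases before to 50 bases after the start, and stand at chr10:72273674-72273973 (plus strand) and chr16:56931892-56932191 (plus strand). Capitals mark matches to ACGTG, the core of the hypoxia response element, on either strand, and to TGATGCAA, the C/EBP and ATF response element bound by ATF4 heterodimers, whose reverse strand reads TTGCATCA.
DDIT4: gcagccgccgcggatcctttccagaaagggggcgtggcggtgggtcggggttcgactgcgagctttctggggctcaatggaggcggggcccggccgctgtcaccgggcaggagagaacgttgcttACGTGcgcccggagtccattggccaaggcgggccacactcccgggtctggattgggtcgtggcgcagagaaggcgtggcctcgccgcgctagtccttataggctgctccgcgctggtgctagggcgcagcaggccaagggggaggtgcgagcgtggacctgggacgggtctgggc
HERPUD1: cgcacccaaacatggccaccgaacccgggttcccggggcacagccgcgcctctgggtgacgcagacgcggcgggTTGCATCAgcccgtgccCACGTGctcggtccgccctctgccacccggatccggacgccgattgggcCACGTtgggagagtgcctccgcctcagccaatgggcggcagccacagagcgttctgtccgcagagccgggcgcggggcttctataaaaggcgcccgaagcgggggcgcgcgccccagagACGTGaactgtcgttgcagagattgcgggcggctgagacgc
The core ACGTG was found once for DDIT4, starting 125 bases before the first transcribed base (-125). It was also found in 21.4% of 35116 promoters of the same length. HERPUD1 had 4 matches to this core, of which those at -159 and -158 overlap as a palindrome, and 1 match to TGATGCAA at -176, a motif found in 0.866% of promoters. The promoters of HSPH1 and ADM, which had the lowest interaction p among heat shock chaperones and among hypoxia and glycolysis genes, held no match to the 7 motifs searched. These were the 2 named above, the antioxidant response element (TGACNNNGC, 13.3% of promoters), the cAMP response element (TGACGTCA, 1.85%), the AP-1 site (TGANTCA, 7.71%), the heat shock element (0.49%) and the carbohydrate response element (0.0057%). The heat shock element was present in 4 of 15 promoters of heat shock chaperones. The hypoxia core was present in 12 of 24 promoters of hypoxia and glycolysis genes, in 8 of 18 of the unfolded protein response and in 3 of 18 of the integrated stress response. Antioxidant response elements were present in 6 of 18 promoters of the integrated stress response and 4 of 18 of the unfolded protein response. They were present in 3 of 15 promoters of heat shock chaperones and 2 of 24 of hypoxia and glycolysis genes. For TGATGCAA the counts in the same order were 2 of 18, 1 of 18, 0 of 15 and 0 of 24.

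DDIT4 was compared with the same interaction for cocaine, which used the same control libraries. It stood at 191, 184 and 203 CPM with cocaine + inhibitor and at 176, 189 and 212 CPM with cocaine, and the cocaine interaction was -0.29 (SE 0.103, adjusted p = 0.918). The dopamine interaction minus the cocaine interaction was -0.53 (SE 0.103), which was not called over all genes (adjusted p = 0.956). DDIT4 had been chosen by libraries that enter this difference.

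No other gene passed the test for the interaction, and the next lowest adjusted p was 0.23. At an unadjusted p under 0.05, 720 genes (3.81%) had a negative interaction and 860 (4.55%) a positive one. The median SE was 0.16 for the interaction and 0.113 for each simple effect, so that the median 95% interval of an interaction reached 0.337 to either side. This interval is not adjusted for the number of genes tested. With 3 libraries per group, values well above it were also not called, such as 0.86 for FBXL6 (adjusted p = 0.23). DESeq2 called 18 genes for the interaction and limma voom called 1.

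The 12 genes with the lowest p on the negative side and a mean of at least 5 CPM were examined next. The dopamine group stood farthest from the other 3 groups in 8 of them, on the high side. A choice by negative interaction favours such a position, and its share over all genes was not counted. The interactions of the 12 genes ran from -1.72 to -0.27, and their adjusted p-values were 0.385 apart from that of DDIT4. In all 12 the dopamine libraries did not overlap the control libraries, against 23.9% of all genes, and in 4 of the 12 the dopamine + inhibitor libraries did not overlap the control + inhibitor libraries, against 10.2% of all genes. The genes were chosen by a p that rests on these libraries, so nothing is read from these counts. ADM encodes adrenomedullin, a vasodilator peptide raised by hypoxia. It had 6.34, 9.64 and 3.93 CPM in dopamine + inhibitor libraries, 11.6, 14.7 and 9.85 CPM in dopamine libraries, 10.4, 5.53 and 9.42 CPM in control + inhibitor libraries, and 4.02, 5.19 and 4.73 CPM in control libraries. Its interaction was -1.72 (SE 0.377, adjusted p = 0.385), and it rose with dopamine against control by 1.37 (adjusted p = 0.027) but had -0.35 with the inhibitor in both arms (adjusted p = 0.972).

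BHLHE40, a transcriptional repressor raised by hypoxia whose gene overlaps BHLHE40-AS1, had 28.1, 30.4 and 23.7 CPM in dopamine + inhibitor libraries and 34.7, 42.4 and 38.7 CPM in dopamine libraries. It had 31.8, 27.7 and 28.4 CPM in control + inhibitor libraries and 20.45, 28.7 and 26.2 CPM in control libraries, so each dopamine library stood above all 9 others. Its interaction was -0.72 (SE 0.162, adjusted p = 0.385). PPP1R3C, a glycogen-targeting subunit of protein phosphatase 1, had 19.1, 20.1 and 17.55 CPM in dopamine + inhibitor libraries and 24.03, 30.73 and 24 CPM in dopamine libraries, against 20.9, 13.6 and 18.9 CPM in control + inhibitor libraries and 14.3, 15.4 and 12.3 CPM in control libraries. It rose with dopamine against control by 0.91 (adjusted p = 0.00715), had 0.09 between the 2 inhibitor groups (adjusted p = 0.978) and an interaction of -0.82 (SE 0.192, adjusted p = 0.385). The remaining genes on this side included CLK1, a kinase of splicing factors (-0.38), FAM210A, a mitochondrial protein (-0.45), and DNAJB4, a cochaperone of HSP70 (-0.50).

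On the positive side FBXL6, which encodes an F-box protein, had the lowest p of the genes with a mean of at least 5 CPM. It had 8.35, 7.44 and 7.31 CPM in dopamine + inhibitor libraries, 5.08, 4.96 and 5.85 CPM in dopamine libraries, 6.48, 5.96 and 5.71 CPM in control + inhibitor libraries, and 7.71, 7.58 and 7.36 CPM in control libraries. The order mirrors that of DDIT4, with the groups given one agent low and those given both or neither high. The interaction was 0.86 (SE 0.153, adjusted p = 0.23), FBXL6 fell by 0.51 with dopamine against control (adjusted p = 0.0334), and its value between the 2 inhibitor groups was 0.35 (adjusted p = 0.709). FBXL6 overlaps SLC52A2 on the opposite strand, and reads of the 2 genes cannot be separated because the strand setting of the counts is not given. The other genes on this side had interactions of 0.32 to 0.96 and adjusted p-values of 0.385, among them CCDC57 (0.35), ZMIZ2, a coactivator of transcription (0.38), ANO8, a tether between the endoplasmic reticulum and the plasma membrane (0.47), and SLC29A4, a plasma membrane monoamine transporter (0.35). CCDC57, ANO8 and SLC29A4 also overlap genes or transcripts on the opposite strand. In 5 of the 12 genes on the positive side the dopamine group stood farthest from the rest, on the low side, and in 5 the control group, on the high side. A choice by positive interaction favours both positions, so nothing is read from these counts.

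The 2 dopamine effects were compared for the genes that responded to dopamine without acetylcysteine. Dopamine against control called 133 genes (0.703%), of which 105 rose and 28 fell, whereas dopamine + inhibitor against control + inhibitor called 1 gene (0.00529%), BIRC7. This count for dopamine against control rested on single libraries. It was 7 without dopamine replicate 2, 87 without dopamine replicate 1, and 18, 37 and 8 without control replicates 1, 2 and 3. A gene called in one arm and not in the other is not thereby shown to differ between the arms, and of the 133 genes only DDIT4 was called for the interaction. The comparison of the inhibitor groups shares no library with the one that chose the 133 genes. There, 91 of the 105 genes that rose were above 0, against 48.2% of all genes, and 53 of the 105 were above 0 with an unadjusted p under 0.05, against 3.01% of all genes. Of the 28 genes that fell, 22 were below 0 and 5 had an unadjusted p under 0.05 in that direction, against 2.57% of all genes. The median log2 fold change of the 105 genes was 0.14 with the inhibitor in both arms, and 0.38 without it, where it had chosen them. For the 28 genes these medians were -0.07 with the inhibitor and -0.45 without it. Values that chose the genes overstate their size, so the gap between the medians is a description.

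**Figure D2:**
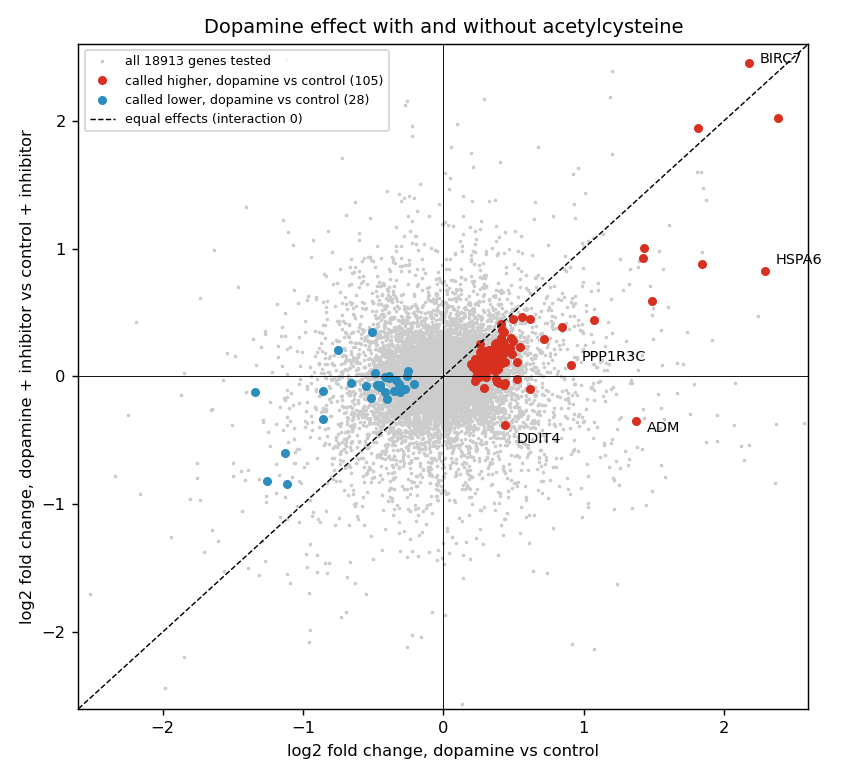
Log2 fold change of dopamine + inhibitor against control + inhibitor (vertical) and of dopamine against control (horizontal) for all 18913 genes tested (grey) within 2.6 of 0, with the 105 genes called higher and the 28 called lower in dopamine against control in colour. Most coloured points keep their sign with acetylcysteine and lie nearer to 0 than the dashed line of equal effects, while DDIT4 and ADM lie below 0 and BIRC7 lies near the line. A further 39 genes lie outside the axes.

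The reverse choice, made after the values were seen, took the 133 genes with the lowest p between the 2 inhibitor groups. Of the 95 that were higher with dopamine + inhibitor, 77 were above 0 in dopamine against control, against 49.3% of all genes, with a median of 0.23 there and 0.29 where they were chosen. Of the 38 that were lower, 25 were below 0 in dopamine against control, against 50.7% of all genes, with a median of -0.098 there and -0.73 where they were chosen. Over all 18913 genes, 292 (1.54%) had an unadjusted p under 0.05 in both arms, of which 234 had the same sign and 58 opposite signs.

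BIRC7 and CRYAB had estimates of the dopamine effect that were close in the 2 arms. Their interactions had SEs of 0.542 and 0.581, so equal effects are not shown. BIRC7 encodes an inhibitor of apoptosis and had 1.12, 1.20 and 1.13 CPM in dopamine + inhibitor libraries and 0.937, 0.873 and 0.496 CPM in dopamine libraries, against 0.212, 0.213 and 0.193 CPM in control + inhibitor libraries and 0.113, 0.236 and 0.144 CPM in control libraries. All 6 dopamine-treated libraries stood above all 6 others. It rose by 2.45 with the inhibitor in both arms (adjusted p = 0.0191), although no longer called when any 1 of these 6 libraries was left out, and by 2.17 without it (adjusted p = 0.0106). Its interaction was 0.28 (SE 0.542, 95% interval -0.86 to 1.42). CRYAB, a small heat shock protein whose gene overlaps HSPB2, had 10.1, 11.2 and 10.4 CPM in dopamine + inhibitor libraries and 8.50, 12.6 and 8.50 CPM in dopamine libraries, against 6.05, 1.06 and 3.40 CPM in control + inhibitor libraries and 2.33, 3.06 and 3.07 CPM in control libraries. Neither of its dopamine effects was called, at 1.60 with acetylcysteine (adjusted p = 0.526) and 1.80 without it (adjusted p = 0.0693), and its interaction was -0.21 (SE 0.581). These 2 genes and LOC105373359 are the 3 that the authors' deposited tables list both for dopamine + inhibitor and for dopamine. That is 3 of the 12 genes in the first table and 3 of the 63 considered here from the second. They were named after their values were seen, and a choice by both tables favours genes with an effect in both arms. In the authors' deposited tables BIRC7 has a log2 fold change of 2.45 for dopamine + inhibitor and of 2.17 for dopamine. Matching of the tables to ratios of group mean TPM gave control + inhibitor and control as their comparators. None of the tested genes in these tables was called for the interaction here.

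Genes of protein secretion led the response to dopamine alone and had positive values in both arms. ARF4, a GTPase of Golgi traffic, rose by 0.48 with dopamine (adjusted p = 0.00296) and had 0.30 with the inhibitor in both arms (adjusted p = 0.193), with an interaction of -0.18 (SE 0.0832). SRP54, a subunit of the signal recognition particle, had an interaction of -0.15 (SE 0.0735), and SRPRA, a subunit of its receptor, one of -0.16 (SE 0.083). CCDC9, a splicing-associated protein, had 0.45 with the inhibitor in both arms and 0.61 without it, with an interaction of -0.17 (SE 0.123).

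Lists of stress genes had mostly negative interactions. Of the 100 tested genes in 5 lists that share no member (heat shock chaperones, integrated stress response, unfolded protein response, hypoxia and glycolysis, and p53 targets), 90 had a negative interaction, against 51.1% of all genes tested, and 33 were negative with an unadjusted p under 0.05, against 3.81% of all genes; none was positive at that level. Only DDIT4 among them was called. The median interaction of the 100 genes was -0.19, against -0.0045 over all genes. Their median log2 fold change was 0.03 with the inhibitor in both arms and 0.20 without it, and 65 were above 0 in the first comparison, against 48.2% of all genes, and 91 in the second, against 49.3% of all genes. In the second, dopamine against control, 19 of the 100 were called higher, against 0.555% of all genes, and none lower. Genes of a list move together within a library, so these counts are not independent. In bulk RNA, fewer cells of a type and less RNA per cell cannot be told apart.

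Heat shock chaperones, which refold damaged proteins, had a negative interaction in 16 of 16 genes, with a median of -0.23 and 9 at an unadjusted p under 0.05. HSPH1, a nucleotide exchange factor of HSP70, had 175, 186 and 175 CPM in dopamine + inhibitor libraries and 202, 215 and 208 CPM in dopamine libraries, against 169.6, 187 and 176 CPM in control + inhibitor libraries and 166, 171.5 and 174 CPM in control libraries. It rose by 0.29 with dopamine (adjusted p = 0.0177) and had 0.01 between the 2 inhibitor groups (adjusted p = 0.997), with an interaction of -0.28 (SE 0.0758, adjusted p = 0.428). HSPA6 is a strictly inducible HSP70 whose counts are uncertain because near-identical copies exist. It had 4.81, 5.54 and 3.38 CPM in dopamine + inhibitor libraries and 8.68, 10.1 and 11.1 CPM in dopamine libraries, against 2.58, 1.63 and 3.59 CPM in control + inhibitor libraries and 1.54, 1.75 and 2.82 CPM in control libraries. It rose with dopamine by 2.29 (adjusted p = 0.0147), had 0.82 with the inhibitor in both arms (adjusted p = 0.893) and an interaction of -1.47 (SE 0.542, adjusted p = 0.533). The dopamine libraries were the highest of the 12 for both genes. The mitochondrial chaperonin HSPD1, which overlaps HSPE1, had an interaction of -0.20 and CHORDC1, a cochaperone of HSP90, one of -0.37.

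In the integrated stress response list 18 of 19 genes had a negative interaction, with a median of -0.21 and 8 at an unadjusted p under 0.05. Beside DDIT4, these included SESN2, another inhibitor of mTORC1 (-0.29, SE 0.0983), PHGDH, the first enzyme of serine synthesis (-0.46, SE 0.149), and DDIT3, the transcription factor CHOP, which overlaps MARS1 (-0.42, SE 0.19). ATF3, a stress-induced repressor, had 18.3, 23.2 and 19.6 CPM in dopamine + inhibitor libraries, 20.6, 28.0 and 24.4 CPM in dopamine libraries, 17.1, 11.3 and 18.3 CPM in control + inhibitor libraries, and 11.7, 13.0 and 15.9 CPM in control libraries. It rose with dopamine by 0.85 (adjusted p = 0.0233), had 0.39 between the inhibitor groups (adjusted p = 0.887), and its interaction was -0.46 (SE 0.23, adjusted p = 0.621).

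Among genes of the unfolded protein response, 16 of 19 were negative, with a median of -0.14. HERPUD1, an adaptor of protein degradation at the endoplasmic reticulum that overlaps unnamed transcripts on its own strand, had 48.9, 48.3 and 46.3 CPM in dopamine + inhibitor libraries and 53.4, 53.35 and 53.2 CPM in dopamine libraries, against 46.5, 46.9 and 45.25 CPM in control + inhibitor libraries and 41.7, 43.95 and 42.3 CPM in control libraries. The 3 dopamine libraries were the highest and the 3 control libraries the lowest of the 12. It rose by 0.32 with dopamine (adjusted p = 0.00472) and had 0.05 between the inhibitor groups (adjusted p = 0.972), with an interaction of -0.27 (SE 0.0652, adjusted p = 0.385). The chaperones HSP90B1 (-0.28, SE 0.0688) and HSPA5 (-0.21, SE 0.0771) had values of similar size.

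Of 28 hypoxia and glycolysis genes 24 were negative, with a median of -0.16, which was -0.095 without control + inhibitor replicate 1 and -0.088 without dopamine + inhibitor replicate 3. P4HA1, a collagen prolyl hydroxylase subunit, had an interaction of -0.32 (SE 0.106). Of 18 p53 targets 16 were negative, with a median of -0.19. CDKN1A, the cell cycle inhibitor p21, had 80.8, 87.1 and 79.8 CPM in dopamine + inhibitor libraries, 111.5, 117.5 and 113.5 CPM in dopamine libraries, 92.3, 69.3 and 81.8 CPM in control + inhibitor libraries, and 76.3, 84.9 and 87.6 CPM in control libraries. Each dopamine library was above the other 9, and the interaction was -0.44 (SE 0.147, adjusted p = 0.484). GDF15, a stress-induced cytokine, had an interaction of -0.96 (SE 0.531).

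**Figure D3:**
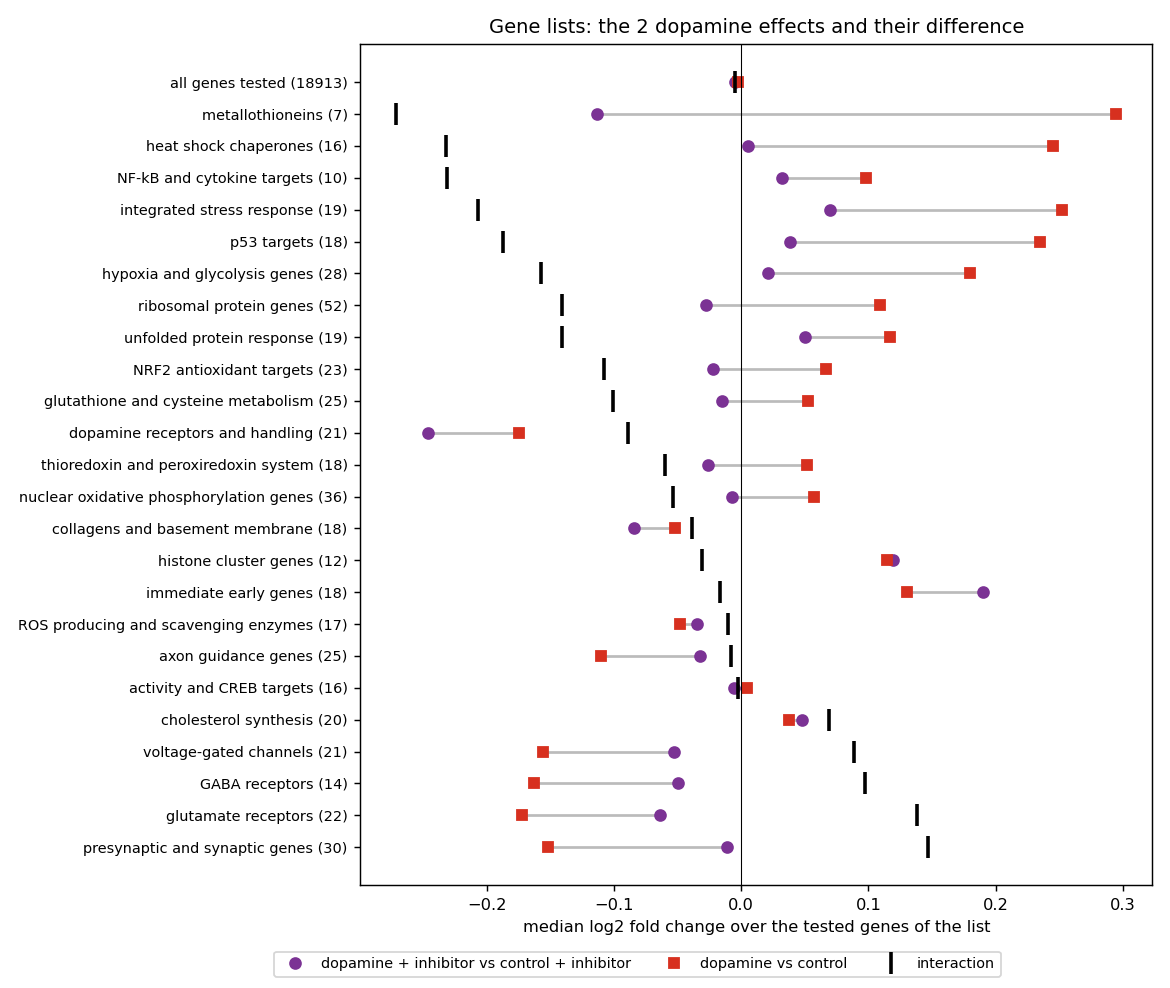
Median log2 fold change (horizontal) of the tested genes of each list, with their number in brackets, for dopamine + inhibitor against control + inhibitor (circles), dopamine against control (squares) and the interaction (bars). Heat shock, integrated stress response, p53 and hypoxia genes have squares at 0.18 to 0.25 and circles at 0.01 to 0.07, and the synaptic, glutamate receptor, GABA receptor and voltage-gated channel lists have squares below 0 and circles nearer to 0. Dopamine receptors and handling genes have both below 0, with the circle farther out.

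The NRF2, glutathione, thioredoxin and ROS enzyme lists had medians nearer to 0 than the 5 stress lists, a difference that was not tested, while 7 metallothioneins, which bind metals, had a median of -0.27 with none at an unadjusted p under 0.05. The metallothionein median ran from -0.74 (without control + inhibitor replicate 2) to -0.023 (without control + inhibitor replicate 3). Of 23 NRF2 targets 17 were negative, with a median of -0.11, and 18 of 25 genes of glutathione and cysteine metabolism were negative, with a median of -0.10. The glutathione median was nearer to 0 without dopamine + inhibitor replicate 3 (-0.046), dopamine replicate 1 (-0.058) or dopamine replicate 2 (-0.064). HMOX1, which degrades haem, had 5.78, 5.42 and 4.26 CPM in dopamine + inhibitor libraries, 6.12, 7.72 and 6.08 CPM in dopamine libraries, 6.23, 6.74 and 5.98 CPM in control + inhibitor libraries, and 5.08, 5.46 and 5.45 CPM in control libraries. Its interaction was -0.61 (SE 0.184, adjusted p = 0.446). FTL, the ferritin light chain, rose by 0.47 with dopamine (adjusted p = 0.00367), had 0.22 with the inhibitor in both arms (adjusted p = 0.557) and an interaction of -0.25 (SE 0.0888). FTL has processed pseudogenes, so its count is uncertain. NQO1, a quinone reductase, had an interaction of -0.49 (SE 0.179), and GCLC and GCLM, the subunits of the rate-limiting enzyme of glutathione synthesis, had -0.22 (SE 0.0771) and -0.23 (SE 0.117). TXNRD1, thioredoxin reductase, had -0.07 (SE 0.0676) and SLC7A11, the cystine importer, -0.18 (SE 0.146). Lists of thioredoxin and peroxiredoxin genes and of ROS enzymes had medians of -0.06 and -0.01. The first was 0.016 after removal of a GC and length trend, and -0.018 without control + inhibitor replicate 3 and -0.038 without control replicate 2. The second lay between -0.13 (without control + inhibitor replicate 2) and 0.01 (without dopamine replicate 3). TXNIP, the inhibitor of thioredoxin, had 489, 524 and 523 CPM in dopamine + inhibitor libraries, 523, 515.6 and 545 CPM in dopamine libraries, 452, 479 and 427 CPM in control + inhibitor libraries, and 526, 548 and 551 CPM in control libraries. It was lowest in the 3 control + inhibitor libraries, and its interaction was 0.21 (SE 0.0782, adjusted p = 0.523).

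Acetylcysteine alone, control + inhibitor against control, called no gene (0.0%) in edgeR, while DESeq2 called 5 and limma voom none. In edgeR 1081 of 18913 genes had an unadjusted p under 0.05. All 20 cholesterol synthesis genes were below 0 there, against 48.3% of all genes, with a median of -0.21. Of these, 15 had an unadjusted p under 0.05, against 535 of all 18913 genes in that direction, and none was called. In dopamine + inhibitor against dopamine, 18 of the 20 were below 0, against 49.2% of all genes. Dopamine + inhibitor against dopamine called 1 gene (0.00529%), DDIT4, which was not called when dopamine + inhibitor replicate 1 or 3 or dopamine replicate 2 or 3 was left out.

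Neuronal lists differed in direction. Of 30 presynaptic and synaptic genes 25 were positive, with a median of 0.15, which was 0.24 without control + inhibitor replicate 2. Of 22 glutamate receptor genes 18 were positive, with a median of 0.14, which was 0.22 without that library, and of 21 voltage-gated channel genes 17 were, with a median of 0.09, which was 0.21 without it, 0.026 without control + inhibitor replicate 3 and 0.16 without dopamine replicate 1. Without acetylcysteine the medians of these lists were -0.15, -0.17 and -0.16 for dopamine against control, and between the 2 inhibitor groups they were -0.01, -0.06 and -0.05. Other neuronal lists lay nearer to 0: the median was -0.0079 for axon guidance genes (13 of 25 negative), -0.0028 for activity and CREB targets (8 of 16 negative) and 0.03 for pan-neuronal markers (5 of 17 negative). The first 2 of these medians changed sign when single libraries were left out, with ranges of -0.03 to 0.08 and -0.07 to 0.03, and the last ran from 0.0011 (without control + inhibitor replicate 3) to 0.13 (without control + inhibitor replicate 2). CACNA1E, a calcium channel subunit, fell by 0.45 with dopamine (adjusted p = 0.0224), had -0.07 between the inhibitor groups (adjusted p = 0.978) and an interaction of 0.39 (SE 0.124, adjusted p = 0.465). Among the axon guidance genes, NRP1, a semaphorin receptor, fell by 0.45 with dopamine (adjusted p = 0.0165) and had an interaction of 0.37 (SE 0.117). UNC5A, a netrin receptor, had an interaction of 0.40 (SE 0.12), NLGN2, an adhesion protein of inhibitory synapses, 0.27 (SE 0.0725), and SHANK1, a postsynaptic scaffold, 0.39 (SE 0.115). GRIK3, a kainate receptor subunit, had 0.36 (SE 0.168).

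Of 21 genes of dopamine receptors and handling, none was called for the interaction and 13 were negative, with a median of -0.09. This median had no stable size: it ran from -0.15 (without control + inhibitor replicate 2) to 0.00043 (without dopamine replicate 3) when 1 library was left out. DRD1, a receptor that raises cAMP, had 2.05, 3.87 and 2.63 CPM in dopamine + inhibitor libraries, 2.49, 2.41 and 3.01 CPM in dopamine libraries, 6.90, 3.08 and 3.36 CPM in control + inhibitor libraries, and 2.03, 1.99 and 2.20 CPM in control libraries, with an interaction of -0.99 (SE 0.474). DRD2, a receptor that lowers cAMP, had an interaction of 0.30 (SE 0.24) and TH, the rate-limiting enzyme of dopamine synthesis, 0.02 (SE 0.421) at 1.03 to 2.79 CPM. MAOA, the mitochondrial monoamine oxidase, had 54.0, 52.1 and 53.4 CPM in dopamine + inhibitor libraries, 52.5, 53.5 and 54.8 CPM in dopamine libraries, 61.6, 66.5 and 61.1 CPM in control + inhibitor libraries, and 65.65, 62.5 and 61.2 CPM in control libraries. All 6 dopamine-treated libraries were below the 6 others, with -0.25 with acetylcysteine and -0.24 without it (adjusted p = 0.813 and 0.219), and the interaction was -0.01 (SE 0.125). Immediate early genes had no common direction, with 9 of 18 negative. JUNB had -0.56 (SE 0.194), FOS -0.44 (SE 0.223), FOSB, which overlaps ERCC1, -0.90 (SE 0.454) and ARC 0.55 (SE 0.186).

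Markers of cell types varied between libraries of one group as well as between groups, and many of the group ranges given below overlap. A positive interaction was found for 17 of 20 tested markers of ventral forebrain and interneurons, with a median of 0.34, which was 0.51 without control + inhibitor replicate 2. Their summed level was 674 to 846 CPM in dopamine + inhibitor, 585 to 746 CPM in dopamine, 687 to 899.7 CPM in control + inhibitor and 794 to 830.1 CPM in control libraries, and LHX8 and PVALB were among the members that stayed under 0.5 CPM throughout. OLIG1, an oligodendrocyte lineage factor, had 4.29, 3.52 and 3.59 CPM in dopamine + inhibitor libraries, 2.67, 1.36 and 2.41 CPM in dopamine libraries, 3.26, 5.07 and 4.13 CPM in control + inhibitor libraries, and 4.74, 6.399 and 5.20 CPM in control libraries. It fell with dopamine by 1.34 (adjusted p = 0.0141), had -0.13 with the inhibitor in both arms (adjusted p = 0.984) and an interaction of 1.22 (SE 0.335, adjusted p = 0.437). NKX2-2, a ventral patterning factor, fell by 1.13 with dopamine (adjusted p = 0.0383) and had an interaction of 0.52 (SE 0.324). Of 24 markers of dividing cells 22 had a negative interaction, with a median of -0.17, which was -0.30 without control + inhibitor replicate 2, -0.056 without control + inhibitor replicate 3 and -0.041 without dopamine + inhibitor replicate 1. Their summed level was 385 to 508 CPM in dopamine + inhibitor, 502 to 574 CPM in dopamine, 379.5 to 535 CPM in control + inhibitor and 441 to 505 CPM in control libraries. Of 16 choroid plexus and ependyma markers 11 were negative, with a median of -0.31, which ran from -0.55 (without control + inhibitor replicate 2) to -0.17 (without control replicate 1) when 1 library was left out, and summed levels of 232 to 416.5 CPM in dopamine + inhibitor, 291 to 318 CPM in dopamine, 216 to 461 CPM in control + inhibitor and 192 to 289 CPM in control libraries. TTR, the defining gene of choroid plexus, ran from 17.6 to 91.5 CPM in dopamine + inhibitor, from 42.3 to 61.8 CPM in dopamine, from 5.92 to 138.5 CPM in control + inhibitor and from 1.32 to 21.1 CPM in control libraries. Of 16 midbrain and hindbrain markers 13 were negative, with a median of -0.47, which ran from -0.84 (without control replicate 1) to -0.17 (without control + inhibitor replicate 3). None of these markers was called for the interaction. The part of such shifts in the stress and neuronal lists was not tested.

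**Figure D4:**
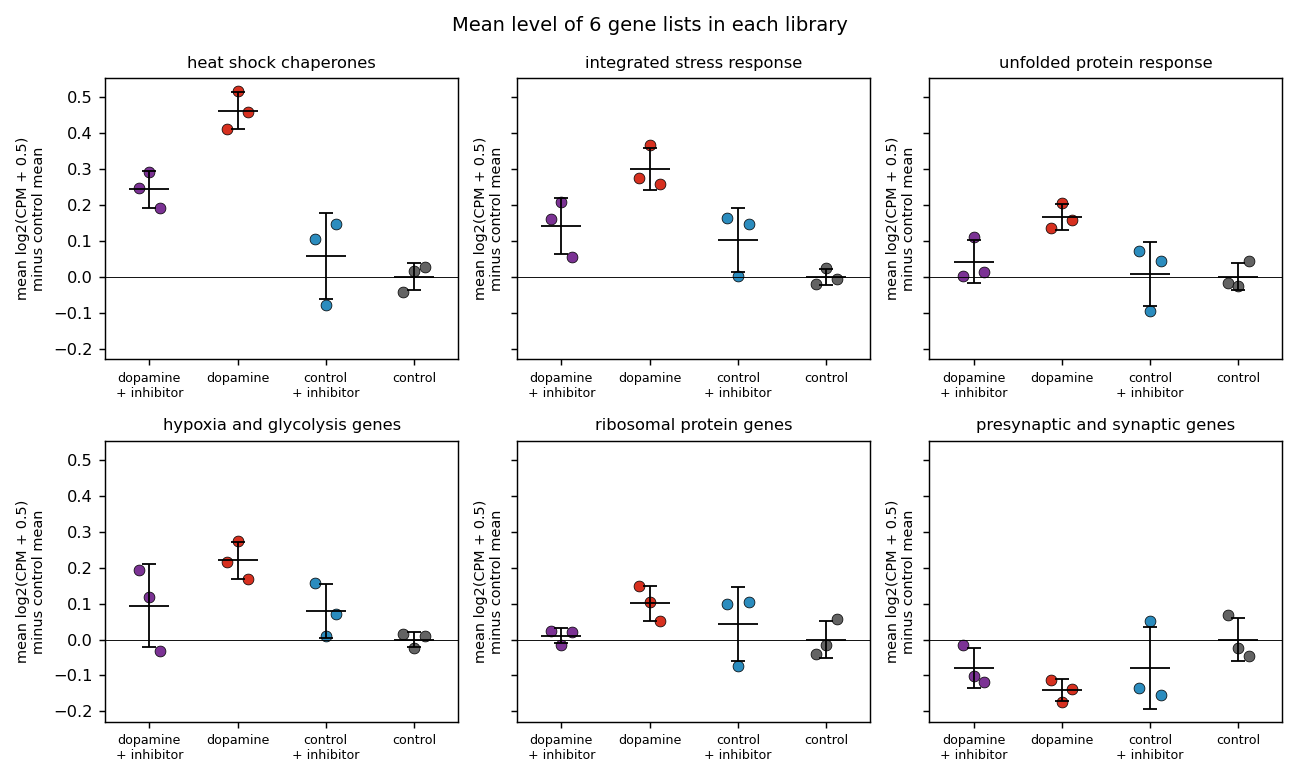
Mean of log2(CPM + 0.5) over the genes of 6 lists, minus its mean in control (vertical), in each library (points) of the 4 groups, with the group mean and SD as bars. The 3 dopamine libraries are highest for heat shock chaperones, at 0.41 to 0.52, and for the integrated stress response, while control + inhibitor replicate 2 lies below its group in 5 lists and above it for synaptic genes.

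Per library, the mean level of the 16 heat shock chaperones relative to control was 0.25, 0.29 and 0.19 in dopamine + inhibitor, 0.41, 0.52 and 0.46 in dopamine, and 0.11, -0.08 and 0.15 in control + inhibitor libraries. The dopamine libraries did not overlap any other group, and on this scale, which weights every gene equally, the dopamine + inhibitor libraries lay between them and the rest. Their summed level, which abundant genes dominate, was 5002 to 5030 CPM in dopamine + inhibitor, 5626 to 5667 CPM in dopamine, 5069 to 5291 CPM in control + inhibitor and 4989 to 5267 CPM in control libraries. By that measure the dopamine libraries were again highest, but the dopamine + inhibitor libraries lay below all control + inhibitor libraries. For the integrated stress response the values were 0.16, 0.21 and 0.05 in dopamine + inhibitor, 0.27, 0.37 and 0.26 in dopamine, and 0.16, 0.00 and 0.15 in control + inhibitor libraries, so that the 2 inhibitor groups overlapped. Control + inhibitor replicate 2 was the lowest of its group for both lists.

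A trend with GC content ran along the same contrast. Across 16280 genes the interaction had a Spearman rho of 0.348 with GC content, dopamine against control one of -0.307 and the comparison of the inhibitor groups one of 0.148; genes are not independent and no test is attached. After a smooth trend on GC content and transcript length was removed from each library, an alternative chosen after seeing the data, DDIT4 was again the only call (-0.84, SE 0.0985, adjusted p = 0.00183). The share of genes with an unadjusted p under 0.05 was then 5.02% (817 of 16280), close to the share that this threshold passes when no gene differs. As first fitted, 1580 of 18913 genes had such a p. Of the 100 stress genes 86 were negative, with a median of -0.16, and 23 were negative at an unadjusted p under 0.05. The median was -0.19 for heat shock chaperones and -0.24 for the integrated stress response, and without dopamine replicate 2, the library with the strongest trend, these medians as first fitted were -0.24 and -0.18. All 52 ribosomal protein genes had a negative interaction, with a median of -0.14, and after removal of the trend 50 were negative with a median of -0.087. The median of glutamate receptors changed to 0.087 and that of synaptic genes to 0.13, and none of the 30 synaptic genes then had an unadjusted p under 0.05, against 6 before. In dopamine against control, 94 of 16280 genes were called after removal. The 12 leading genes on the positive side had a median interaction of 0.40 as first fitted, and the 10 of them with a GC value had 0.29 after removal. For the 12 leading genes on the negative side these medians were -0.48 and -0.365.

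**Figure D5:**
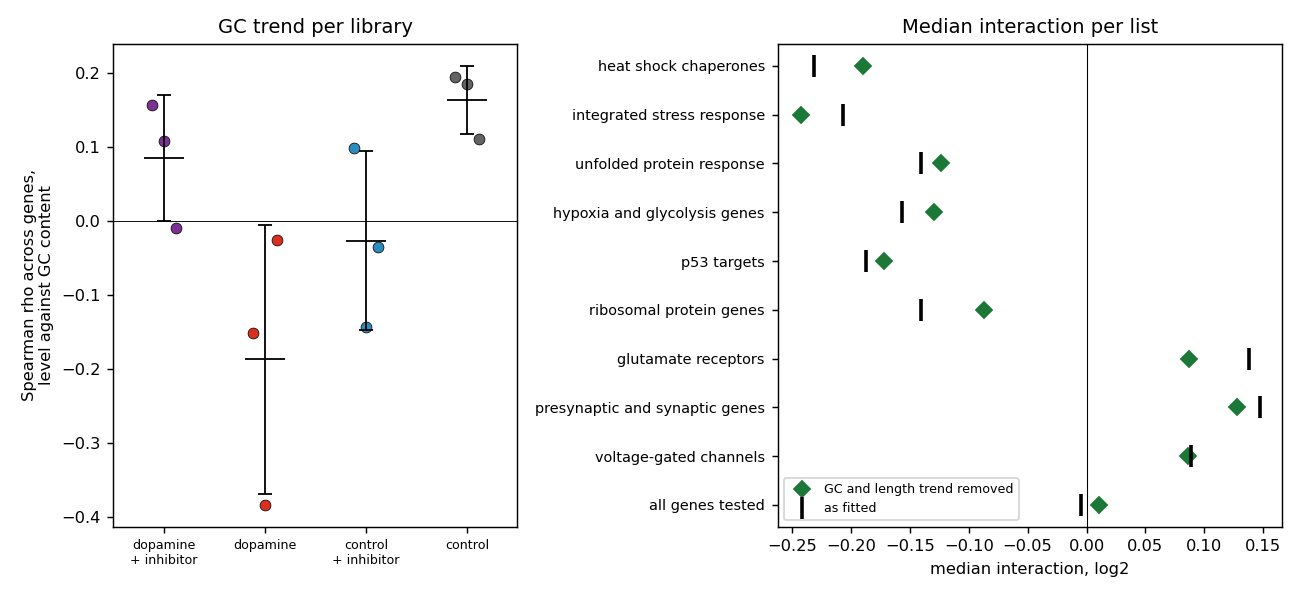
Left, Spearman rho across 16280 genes between a gene's level relative to its mean and its GC content (vertical) for each library (points) of the 4 groups, with the group mean and SD as bars. Right, median interaction (horizontal) of 9 lists and all genes as fitted (bars) and after removal of the GC and length trend (diamonds); the stress lists remain between -0.24 and -0.12 and all genes stay near 0.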

How the data were processed

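Raw counts (whole reads per gene and library) were deposited without normalization, beside TPM values and tables of the authors' own comparisons with log2 fold changes, p-values and linear fold changes per gene, per the file headers. Per the submitters' processing notes, reads were placed on GRCh38 (hg38). The sources used here give no aligner, counter, strand setting or annotation. Of 53853 genes, 28 had date-like names and 2 names were duplicated. TPM, deposited by the authors, served only to find the comparator of each table. Counts were fitted with edgeR 4.0.16 in R 4.3.3: TMM scaling, expression filter with a minimum count of 10, 1 mean per group in all 18 libraries, so that 6 groups share the spread, robust quasi-likelihood F-test, two-sided, Benjamini-Hochberg adjustment over 18913 genes. The 5 contrasts tested were the interaction and its 4 pairwise comparisons. The script was tested on simulated counts. Total counts were 23789195 to 30327891 reads per library; intervals cover the spread between libraries. No pair of libraries in a group agreed within sampling noise (chi-square per gene 3.54 to 18.15).

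Members, lists and tests were chosen with earlier results of these data known. Genes were named by rank of p in each contrast with a minimum of 5 CPM, up to 3 per list with a minimum of 1 CPM, and a fixed panel. Gene positions are from RefSeq (GRCh38.p14) and overlaps between genes from GENCODE 44. Lists are described by counts and medians. Alternatives were RLE and upper quartile scaling, other filters, DESeq2 1.42.0, limma 3.58.1 (voom), the 12 libraries alone, leaving out each library, and, added after the data were seen, genes with a GC value (16280, GENCODE 44) with and without removal of a loess trend on GC content and length. The cocaine libraries entered the fit only for the spread, apart from the DDIT4 comparison, which was added later. Results for some genes are not reported here.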

Additional observations from a re-analysis of the deposited data

Results flagged for a closer look

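The interaction of DDIT4 was flagged because its dopamine effect differed between organoids with and without acetylcysteine by the test of the difference itself, at -0.819 on the log2 scale (edgeR, adjusted p = 0.00457). The effect was -0.38 with the inhibitor in both arms and 0.44 without it. What produces the difference was not tested.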

How the results depend on the processing

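The interaction called 1 gene, DDIT4, under all settings except DESeq2, which called 18, with DDIT4 among them; leaving out each library in turn gave 1 in every case. Dopamine against control called 484 genes in DESeq2 and 7 to 196 when 1 library was left out. Dopamine + inhibitor against control + inhibitor called 10 in DESeq2, 2 in the 12 libraries alone and 0 to 1 when 1 library was left out. Control + inhibitor against control called 5 in DESeq2. Dopamine + inhibitor against dopamine called 33 in DESeq2, 3 without a filter on low counts, 2 with upper quartile scaling and 0 to 3 when 1 library was left out. The cause of these differences was not tested.

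The interaction of the named genes changed sign only for values near 0 or resting on 1 library. With 1 library left out it ran from -0.0776 to 0.478 for BIRC7, from -0.451 to 3.93 for PMEL (-0.451 without dopamine + inhibitor replicate 3), from -0.389 to 0.238 for TH, from -0.635 to 0.456 for CRYAB and from -0.0381 to 0.0373 for MAOA. With the GC trend removed it was -0.0685 for TH and 0.00526 for MAOA; limma voom gave -0.0273 for TH and 0.138 for CRYAB, and the linear scale gave -0.107 CPM for TH and 0.049 CPM for CRYAB. The medians of the heat shock, integrated stress response, unfolded protein response, hypoxia, p53 and synaptic lists kept their sign in all 21 settings. No paired analysis was possible because the labels give no replicate numbers shared between groups. With 3 libraries per group, the median 95% interval of an interaction reached 0.337 to either side. Genes with tighter intervals excluded 0 at smaller values, such as HERPUD1 at -0.27 (95% interval -0.41 to -0.13), without being called.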

Other observations

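Posterior HOX genes, which mark hindbrain and spinal levels of the neural tube, differed widely between libraries of the same group. HOXB9 had 0.820, 1.51 and 8.90 CPM in dopamine + inhibitor libraries, 0.829, 0.838 and 0.298 CPM in dopamine libraries, 12.9, 0.355 and 2.82 CPM in control + inhibitor libraries, and 4.32, 0.303 and 8.74 CPM in control libraries. Of 19 such genes tested, 17 were below 0 between the 2 inhibitor groups, with a median of -0.436, and 15 were below 0 in dopamine against control, with a median of -1.80. None was called in either comparison by edgeR. The authors' deposited table for dopamine lists HOXA7, HOXB5, HOXB6, HOXB7, HOXB8, HOXB9 and HOXC8 as lower, with log2 fold changes of -3.71 to -2.16. The median interaction of the 19 genes was 0.82, with none called, and it ran from -0.162 without dopamine + inhibitor replicate 3 to 2.21 without control + inhibitor replicate 1.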
